A study of Mus musculus with 46 samples.

Results

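Transcript loss was followed in 6 of the 46 RNA-seq libraries of the series: mouse EPSCs (labelled EPS), a pluripotent stem cell type that can also contribute to extraembryonic tissue, after 0, 1 and 2 h with actinomycin D, 2 libraries at each time. All 6 libraries carry actinomycin D as their treatment, those at 0 h included, and no strain, genotype, dose or vehicle group is given for them in the labels. A further 2 EPS libraries at 3 h were left out by the rule that chose these members. Cells of the same design induced toward primitive endoderm (PrEdiff; 0, 1 and 2 h, 2 libraries each) served as the comparison, primitive endoderm being the blastocyst lineage that later lines the yolk sac. The stated question was how stable RNA is in different cell states; m6A, the methyl mark on internal adenosines of mRNA, is in the title of the study. Nothing in the labels says whether the 2 libraries of a time came from separate cultures, so the spread between them may be technical. P-values are measured only against that spread and, where a straight line over the hours was fitted, against departure from the line.

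Actinomycin D binds DNA and stops RNA polymerases, so a transcript's later level depends on how quickly it is degraded. Most mammalian mRNAs are degraded after their poly(A) tail has been shortened, and proteins that bind AU-rich elements or Pumilio motifs in the 3′ untranslated region (3′ UTR) speed up that step. Messages for signalling regulators and many transcription factors are known to turn over quickly, and those for ribosomal proteins and metabolic enzymes slowly.

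For each gene the log2 level was fitted as a straight line over the hours of treatment. Levels are counts scaled to a common library size with edgeR's TMM factors (CPM), which set the middle of the distribution of changes to about 0. A slope of -1 per hour is therefore a halving each hour relative to the average transcript, a slope of 0 is loss at the average rate, and a positive slope is a growing share among what remained. "Fell" and "rose" are used in that relative sense for genes with an adjusted p under 0.05 in edgeR's quasi-likelihood test. Libraries of whole cultures cannot tell fewer cells of a type from less RNA per cell.

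The 6 libraries held 18703260 to 20080710 counts. The EPS identity markers (Pou5f1, Sox2, Nanog, Esrrb, Zfp42, Tfcp2l1, Klf4, Dppa5a, Tdgf1 and Utf1) were all detected and took 0.488% to 0.597% of the counts of a library, against 0.00936% to 0.0151% for 10 primitive endoderm markers, 0.0192% to 0.0252% for 12 markers of feeder fibroblasts, 0.00660% to 0.0106% for 8 trophoblast markers and 0.000812% to 0.00109% for 8 markers of 2-cell-like cells, with no marker of any list at 0 in all 6. Libraries of a time differed by slightly more than sampling noise (the ratio of chi-square to its degrees of freedom over 13027 genes was 1.202 at 0 h, 1.32 at 1 h and 1.21 at 2 h). The median coefficient of variation between them was 2.29% among genes of at least 10 CPM. Composition moved with time: ribosomal protein genes took 8.95% and 8.93% of the counts at 0 h, 14.7% and 14.7% at 1 h and 17.3% and 17.2% at 2 h, while mitochondrially encoded genes took 2.82% and 2.94%, 1.39% and 1.45%, and 1.11% and 1.15%. In the 3 h libraries, left out here, the ribosomal protein share was back at 11.4% in both.

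Of 13027 genes tested, 4543 fell (34.9%) and 4200 rose (32.2%) relative to the average transcript. Counts of each gene list below are to be read against these shares. Slopes of the middle 90% of genes ran from -0.81 to 0.57, and the distribution had a longer lower tail: 343 genes (2.63%) fell with a slope of -1 or steeper. Among the 8257 genes with a mean of at least 10 CPM the slopes ran from -1.93 to 0.88, with 134 below -1 and 0 above 1, and 37% fell and 40.3% rose. The libraries at 0 h and 2 h did not overlap for 11382 genes (87.4%), and 6826 (52.4%) moved one way at each time without overlap, so a lack of overlap was the rule here and marks no gene. Falls and rises are nearly balanced by construction. With library totals in place of TMM factors the split was 6945 lower and 2240 higher (median slope -0.20), and with libraries scaled to the summed ribosomal protein counts it was 11661 lower and 36 higher (median -0.66, against -0.011 for the reported scaling). Under the last of these, the rises reported below for gene lists were no longer called except for 16 ribosomal protein genes, 4 of oxidative phosphorylation, 1 of the cytoskeleton and 1 histone gene.

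Scaled to the ribosomal protein transcripts, the median gene of at least 10 CPM stood at 41.0% of its 0 h level after 2 h, with the middle 90% of genes between 14.9% and 89.4%. On that scale 5355 of these 8257 genes (64.9%) had less than 50% left and 1574 (19.1%) less than 25%. Dusp1 had 2.58% left, Myc 5.47%, Sox2 7.97%, Klf4 12.02%, Nanog 34.4%, Gapdh 72.3% and Pou5f1 82.8%.

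The steepest loss among genes of at least 10 CPM was that of Dusp1, a phosphatase that switches off MAP kinases, which measured 39.01 and 37.2 CPM at 0 h, 10.01 and 10.4 CPM at 1 h, and 2.05 and 2.89 CPM at 2 h. Each time lay clear of the one before it, and the slope was -1.93 ± 0.063 per hour (log2 ± SE; adjusted p = 2.02e-07). Chac1, a stress-induced enzyme that breaks down glutathione, measured 23.3 and 23.8 CPM at 0 h, 8.63 and 8.94 CPM at 1 h, and 1.63 and 1.26 CPM at 2 h (slope -1.78 ± 0.12, adjusted p = 4.24e-06). Dusp6, the phosphatase that restrains ERK, measured 67.4 and 64.96 CPM at 0 h, 21.9 and 21.1 CPM at 1 h, and 6.03 and 6.92 CPM at 2 h (slope -1.66 ± 0.047, adjusted p = 2.02e-07). All 3 had lost most of their share by the first hour and went on falling in the second. The rest of the 12 steepest falls were the growth factor gene Nodal (-1.56), the zinc finger genes Zfp296 (-1.72), Zfp105 (-1.56), Zfp866 (-1.54), Zfp715 (-1.53) and Zfp97 (-1.50), the histone methyltransferase gene Kmt2c (-1.53), the chromatin gene Arid4b (-1.51) and Txnip (-1.49), an inhibitor of thioredoxin and glucose uptake. At the other end stood short messages for small proteins. Atp5e, a subunit of ATP synthase, measured 88.8 and 93.99 CPM at 0 h, 218 and 220.1 CPM at 1 h, and 309.8 and 310.1 CPM at 2 h (slope 0.88 ± 0.084, adjusted p = 3.03e-05), and S100a6, a calcium-binding protein, Rplp2 and Rpl38, ribosomal proteins, Ndufa2, a subunit of respiratory complex I, and Crabp1, which binds retinoic acid, had slopes of 0.86, 0.86, 0.82, 0.84 and 0.79.

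The nonamer TTATTTATT, a core form of the AU-rich element, was searched on the transcript strand of the 3′ UTRs of GENCODE M21 (GRCm38), and 595 of 8090 (7.35%) held it. Dusp1 has 2 copies, and it is shown here with other named genes that hold one because their slopes span most of the range. The 9 bases in capitals are the nonamer, in windows of 29 bases of 3′ UTR, 5′ to 3′, with T for U.
Dusp1: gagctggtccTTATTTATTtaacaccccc
Chac1: acttgaacctTTATTTATTgcaccatgtt
Csrnp1: cactctgaatTTATTTATTtttttatgtt
Klf5: tgttttatcaTTATTTATTttgtggtaat
Mdm2: ggcattgatgTTATTTATTtgcaaataaa
Nanog: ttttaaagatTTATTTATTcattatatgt
The slopes of these 6 genes were -1.93, -1.78, -1.46, -0.63, -0.45 and -0.11, so the same 9 letters stood in the steepest fall and in a transcript lost at close to the average rate.

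**Figure D1:**
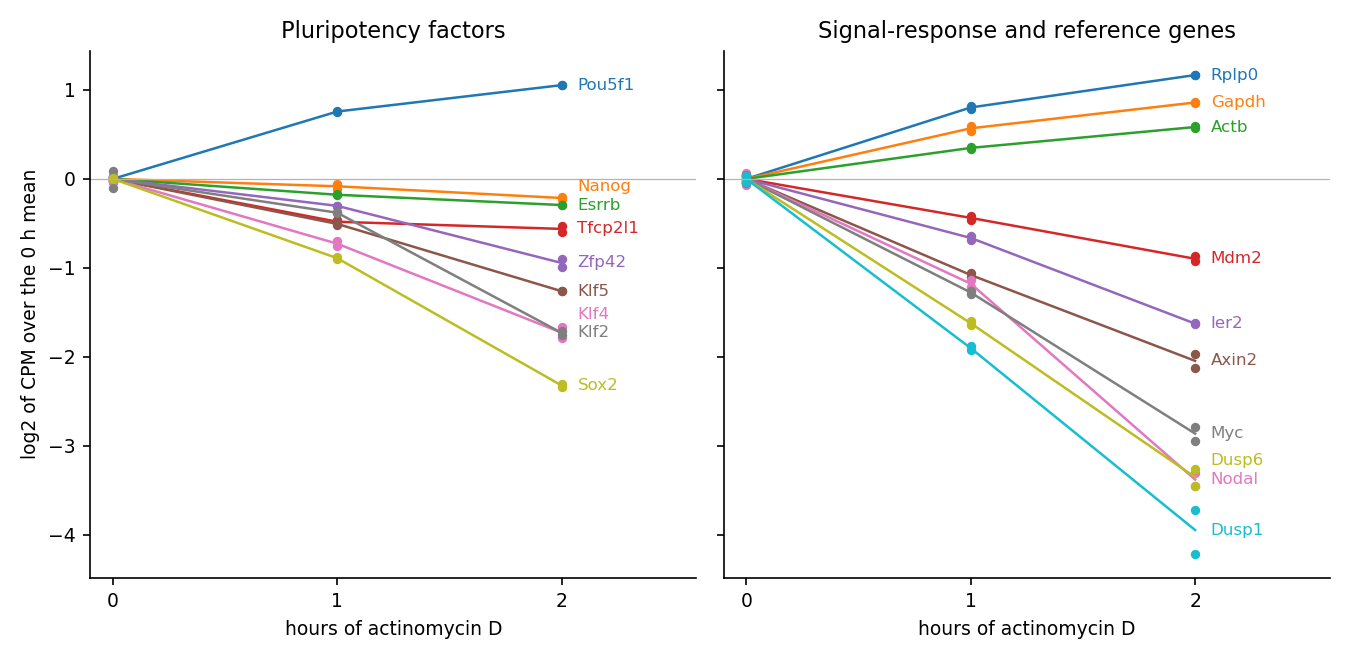
Level of named genes in each of the 6 EPS libraries (points) and their mean (lines), as the log2 of CPM over the mean at 0 h, against hours of actinomycin D, with pluripotency factors on the left and signal-response and reference genes on the right. Sox2 lies lowest on the left and Pou5f1 highest, and Dusp1 lies lowest on the right, where Gapdh, Actb and Rplp0 lie above 0; scaled to ribosomal protein transcripts the slopes of Pou5f1, Gapdh, Actb and Rplp0 are negative.

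Immediate-early genes, whose transcription is switched on within minutes of a growth signal, had the lowest median slope among lists of at least 9 tested genes (-0.88, against -0.011 over all genes tested). Of 26 genes listed 22 passed the filter on low counts, 19 fell and 1 rose. Ier2, a nuclear immediate-early protein, measured 97.97 and 104 CPM at 0 h, 64.5 and 62.9 CPM at 1 h, and 32.7 and 32.5 CPM at 2 h (slope -0.81 ± 0.046, adjusted p = 1.87e-06). Klf10, a zinc finger repressor, measured 61.9 and 65.4 CPM at 0 h, 33.9 and 31.9 CPM at 1 h, and 15.8 and 17.2 CPM at 2 h (slope -0.97 ± 0.042, adjusted p = 4.11e-07). In both the 3 times were well separated and the 2 libraries of a time lay close together. Csrnp1 (-1.46), Ccn1 (-1.49), a matricellular protein, Klf6 (-1.13) and Jun (-1.36), a subunit of the AP-1 factor, fell at slopes steeper than -1. Jun was low throughout, at 4.29 and 5.49 CPM at 0 h, 1.84 and 1.800 CPM at 1 h, and 0.844 and 0.481 CPM at 2 h, and Fos, with 0 to 10 counts in a library, was not tested. The gene that rose was Jund (0.20; -0.46 when scaled to ribosomal protein transcripts), another AP-1 subunit, whose call was lost when either library at 0 h was left out (0.15 and 0.16), and Srf and Maff did not pass the test; these were named after their values were seen.

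Feedback inhibitors of ERK signalling had a median slope of -0.86, with 14 of 17 tested genes lower and 1 higher. Besides Dusp1 and Dusp6, the Sprouty genes fell: Spry4 measured 95.96 and 95.2 CPM at 0 h, 26.6 and 27.4 CPM at 1 h, and 13.5 and 13.8 CPM at 2 h (slope -1.44 ± 0.086, adjusted p = 2.33e-06), and Spry2 measured 111 and 103 CPM at 0 h, 49.4 and 48.4 CPM at 1 h, and 19.4 and 20.2 CPM at 2 h (slope -1.21 ± 0.042, adjusted p = 2.02e-07). Sprouty proteins dampen signalling below receptor tyrosine kinases. Il17rd (-1.06), which holds back FGF signalling, and Spred2 (-0.86), which inhibits Raf, fell less steeply. Among the ETS factors of the same list, named after their values were seen, Etv1 and Etv5 fell at -0.38 and -0.21 and Etv4 rose at 0.29. The slope of Etv4 was -0.37 when scaled to ribosomal protein transcripts, where all 17 genes of the list fell.

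In the Myc family, 6 of 12 tested genes fell and 2 rose (median -0.21), against 34.9% and 32.2% of all genes. Myc, which drives growth genes, measured 74.6 and 70.1 CPM at 0 h, 30.3 and 29.4 CPM at 1 h, and 10.5 and 9.39 CPM at 2 h (slope -1.41 ± 0.053, adjusted p = 2.78e-07). Its paralog Mycn measured 66.6 and 70.2 CPM at 0 h, 39.9 and 38.5 CPM at 1 h, and 16.6 and 17.6 CPM at 2 h (slope -0.98 ± 0.055, adjusted p = 1.75e-06). Myc was thus down to 13.7% of its scaled level after 2 h and Mycn to 25%. Mga (-0.70) and Mnt (-0.57), which compete with Myc for its partner Max, and Mycl (-0.28) fell more slowly. Max itself, named after its value was seen, had a slope of -0.062 ± 0.050 and did not pass the test.

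Pluripotency factors did not share one rate. Of 14 core pluripotency genes 7 fell and 7 rose (median 0.0011); all 14 fell when libraries were scaled to ribosomal protein transcripts. Pou5f1 and Sox2, partners on many enhancers of pluripotent cells, lay at opposite ends of that list. Sox2 measured 297 and 300.2 CPM at 0 h, 162 and 160.1 CPM at 1 h, and 60.6 and 58.8 CPM at 2 h (slope -1.15 ± 0.064, adjusted p = 1.58e-06). Pou5f1 measured 937 and 933 CPM at 0 h, 1576 and 1587 CPM at 1 h, and 1940.4 and 1945 CPM at 2 h (slope 0.53 ± 0.061, adjusted p = 7.00e-05). The share of Sox2 dropped to 19.98% of its start while that of Pou5f1 came to 208%. Nanog measured 318 and 325 CPM at 0 h, 298 and 309 CPM at 1 h, and 279 and 275 CPM at 2 h. Its slope was -0.11 ± 0.033 (adjusted p = 0.0159), near the average, and it no longer passed the test when any 1 of the libraries at 0 h or 2 h was left out, with slopes of -0.0996 to -0.12. Zfp281 (-0.98), a zinc finger repressor, and Rif1 (-0.83), a chromatin protein, also fell.

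Among 19 naive pluripotency genes 13 fell and 4 rose (median -0.40). The Krüppel-like factors, which help to hold cells in the naive state, all fell in the 3 cases tested. Klf2 measured 109 and 125 CPM at 0 h, 89.5 and 90.5 CPM at 1 h, and 35.9 and 34.6 CPM at 2 h (slope -0.85 ± 0.11, adjusted p = 1.24e-04). Klf4 measured 103 and 108 CPM at 0 h, 62.4 and 64.6 CPM at 1 h, and 30.4 and 33.03 CPM at 2 h (slope -0.86 ± 0.046, adjusted p = 1.37e-06). Klf5 measured 135 and 138 CPM at 0 h, 97.2 and 94.9 CPM at 1 h, and 56.8 and 56.9 CPM at 2 h (slope -0.63 ± 0.041, adjusted p = 3.42e-06). Klf2 and Klf4 thus ended at the same share of their start (30.1% and 30.1%). Relative to the average transcript, Klf2 fell mostly in the second hour (-0.38 in the first hour and -1.35 in the second). Klf4 fell more evenly (-0.73 in the first hour and -0.998 in the second), though its hours differed by the test (-0.27, adjusted p = 0.00270). Scaled to ribosomal protein transcripts, Klf2 had 39.6% left at 1 h, so most of its loss then came in the first hour. Its log2 change was still lower in the second hour on that scale (difference -0.38, adjusted p = 4.72e-07). The difference of Klf4 changed sign with that scaling (0.31, adjusted p = 3.09e-04). Tbx3, a T-box factor, measured 49.5 and 50.8 CPM at 0 h, 25.4 and 28.1 CPM at 1 h, and 12.6 and 12.9 CPM at 2 h (slope -0.98 ± 0.045, adjusted p = 6.06e-07). Zfp42, also called Rex1, measured 93.9 and 90.1 CPM at 0 h, 74.6 and 74.5 CPM at 1 h, and 46.4 and 49.2 CPM at 2 h (slope -0.47 ± 0.048, adjusted p = 4.07e-05).

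Esrrb and Tfcp2l1, other factors of the naive network, lost share slowly. Esrrb measured 380.2 and 374 CPM at 0 h, 331 and 335 CPM at 1 h, and 308 and 307 CPM at 2 h (slope -0.15 ± 0.033, adjusted p = 0.00294). Tfcp2l1 measured 215 and 209.6 CPM at 0 h, 154 and 151 CPM at 1 h, and 141 and 147 CPM at 2 h (slope -0.28 ± 0.049, adjusted p = 7.00e-04). Most of its drop relative to the average transcript came in the first hour, and with the 3 h libraries in the fit the slope was 0.0049. The signalling genes of the list were lost fast. Socs3, the feedback inhibitor of LIF and STAT3 signalling, measured 87.1 and 85.8 CPM at 0 h, 34.1 and 36.5 CPM at 1 h, and 14.4 and 12.9 CPM at 2 h (slope -1.32 ± 0.042, adjusted p = 2.02e-07). Fgf4, the FGF ligand that pluripotent cells secrete, measured 121 and 119 CPM at 0 h, 61.1 and 56.3 CPM at 1 h, and 26.5 and 28.8 CPM at 2 h (slope -1.06 ± 0.039, adjusted p = 2.43e-07), and the nuclear receptor gene Nr5a2 had a slope of -0.83. The 4 that rose, named after their values were seen, were Dppa5a (0.71), Dppa3 (0.57), Tcl1 (0.37) and Nr0b1 (0.11); scaled to ribosomal protein transcripts, the slopes of all but Dppa5a were negative. The rise of Nr0b1 was not called without either library at 0 h (0.093 and 0.091) or the second at 2 h (0.11).

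Genes of the formative and primed epiblast had a median slope of -0.47, with 10 of 14 tested lower and 1 higher. The zinc finger factors Zic5 (-1.32) and Zic2 (-0.86), the forkhead factor Foxd3 (-1.19), Sox4 (-0.80) and Grhl2 (-0.70) fell. The de novo DNA methyltransferase genes Dnmt3a and Dnmt3b, named after their values were seen, did not pass the test (0.039 ± 0.032 and -0.025 ± 0.040). Of 11 tested regulators of primitive endoderm, which EPS cells hold only at low levels, 7 fell and 0 rose. Gata6, the GATA factor that specifies the lineage, measured 4.202 and 4.26 CPM at 0 h, 3.27 and 3.55 CPM at 1 h, and 1.81 and 1.93 CPM at 2 h (slope -0.53 ± 0.091, adjusted p = 6.34e-04). Gata4, which acts after it, measured 2.65 and 3.25 CPM at 0 h, 4.19 and 4.13 CPM at 1 h, and 3.19 and 3.43 CPM at 2 h. Its libraries at 0 h and 2 h overlapped, and its slope of 0.089 ± 0.11 did not pass the test (adjusted p = 0.497) and changed sign under other settings.

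The SOX factors of the primitive endoderm were near the limit of detection. Sox17 measured 1.23 and 1.45 CPM at 0 h, 1.07 and 1.11 CPM at 1 h, and 0 and 0.0602 CPM at 2 h (slope -1.10 ± 0.32, adjusted p = 0.0126), a change that rests on few counts and did not pass the test without the second library at 2 h (slope -0.90). Sox7 measured 1.46 and 1.801 CPM at 0 h, 1.12 and 1.22 CPM at 1 h, and 0.301 and 0.241 CPM at 2 h (slope -0.92 ± 0.18, adjusted p = 0.00158). Pdgfra, a receptor used as a surface marker of the lineage, measured 6.81 and 5.75 CPM at 0 h, 5.06 and 4.82 CPM at 1 h, and 3.44 and 4.21 CPM at 2 h (slope -0.35 ± 0.075, adjusted p = 0.00248). Hhex (-0.79) and Eomes (-0.39) fell as well. Markers of the lineage as a whole took 0.0149% of the counts at 0 h and 0.00939% at 2 h, and what part cells of that type had in these values was not tested.

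Signals of the TGF-beta family were also short-lived: of 16 tested BMP, Id and Nodal genes 13 fell and 0 rose (median -0.40). Nodal, the ligand that maintains its own expression in the epiblast, measured 34.7 and 38.1 CPM at 0 h, 16.5 and 15.6 CPM at 1 h, and 3.32 and 3.67 CPM at 2 h (slope -1.56 ± 0.11, adjusted p = 5.68e-06). The inhibitors of the pathway followed, with slopes of -1.14 for the decoy receptor Bambi, -1.08 for Smad7 and -0.68 for Skil. The ligand gene Bmp4 fell at -0.62. Id1, an inhibitor of helix-loop-helix factors that BMP induces, measured 18.2 and 18.7 CPM at 0 h, 16.3 and 16.04 CPM at 1 h, and 12.4 and 13.7 CPM at 2 h (slope -0.25 ± 0.047, adjusted p = 0.00125). Id1 thus kept more of its share than Nodal did.

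Of 12 tested Wnt and Notch targets 7 fell and 2 rose, against 34.9% and 32.2% of all genes. Axin2, a scaffold of the complex that degrades beta-catenin, measured 56.4 and 58.6 CPM at 0 h, 27.6 and 26.8 CPM at 1 h, and 14.7 and 13.1 CPM at 2 h (slope -1.02 ± 0.044, adjusted p = 3.86e-07). Hes1, a Notch-induced repressor, measured 17.3 and 18.4 CPM at 0 h, 8.32 and 7.78 CPM at 1 h, and 3.62 and 3.07 CPM at 2 h (slope -1.18 ± 0.060, adjusted p = 8.96e-07). Znrf3 (-0.89), a ligase that removes Wnt receptors, and Sp5 (-0.86) fell similarly, whereas Cdx1 (0.38) and Hes6 (0.33, named after its value was seen) rose, both of them falls under ribosomal protein scaling. Of 32 tested genes for ligands and receptors of the FGF, LIF, Wnt and related pathways 25 fell and 0 rose (median -0.40). Their median transcript length was 5444.5 nt. Among genes of at least 10 CPM with transcripts of 5099 to 23495 nt, 78.5% fell (median -0.31). The Wnt receptors Fzd8 (-1.33), Fzd5 (-1.05) and Fzd7 (-1.03) fell about as steeply as Axin2, and the co-receptor Lrp6 at -0.61.

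Zinc finger genes of the Zfp, Zkscan and Zscan series, many of which encode DNA-binding proteins of the Krüppel-associated box type, were the largest group of short-lived transcripts. Of 417 listed 382 were tested; 334 fell, 13 rose and 35 did not pass the test, against 34.9% falling and 32.2% rising among all genes. Their median slope was -0.74, and 107 of the 343 genes with slopes of -1 or steeper were among them. Zfp599 measured 20.1 and 21.8 CPM at 0 h, 5.16 and 4.92 CPM at 1 h, and 1.87 and 1.44 CPM at 2 h (slope -1.87 ± 0.077, adjusted p = 3.86e-07). Zfp748 measured 22.3 and 21.6 CPM at 0 h, 5.77 and 5.56 CPM at 1 h, and 2.05 and 2.05 CPM at 2 h (slope -1.75 ± 0.070, adjusted p = 3.36e-07). Zfp146 measured 48.5 and 50.2 CPM at 0 h, 18.9 and 19.2 CPM at 1 h, and 8.86 and 9.02 CPM at 2 h (slope -1.24 ± 0.049, adjusted p = 3.04e-07). Their members are close copies of each other in part, and how reads were shared among such copies is not given in the sources used here.

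**Figure D2:**
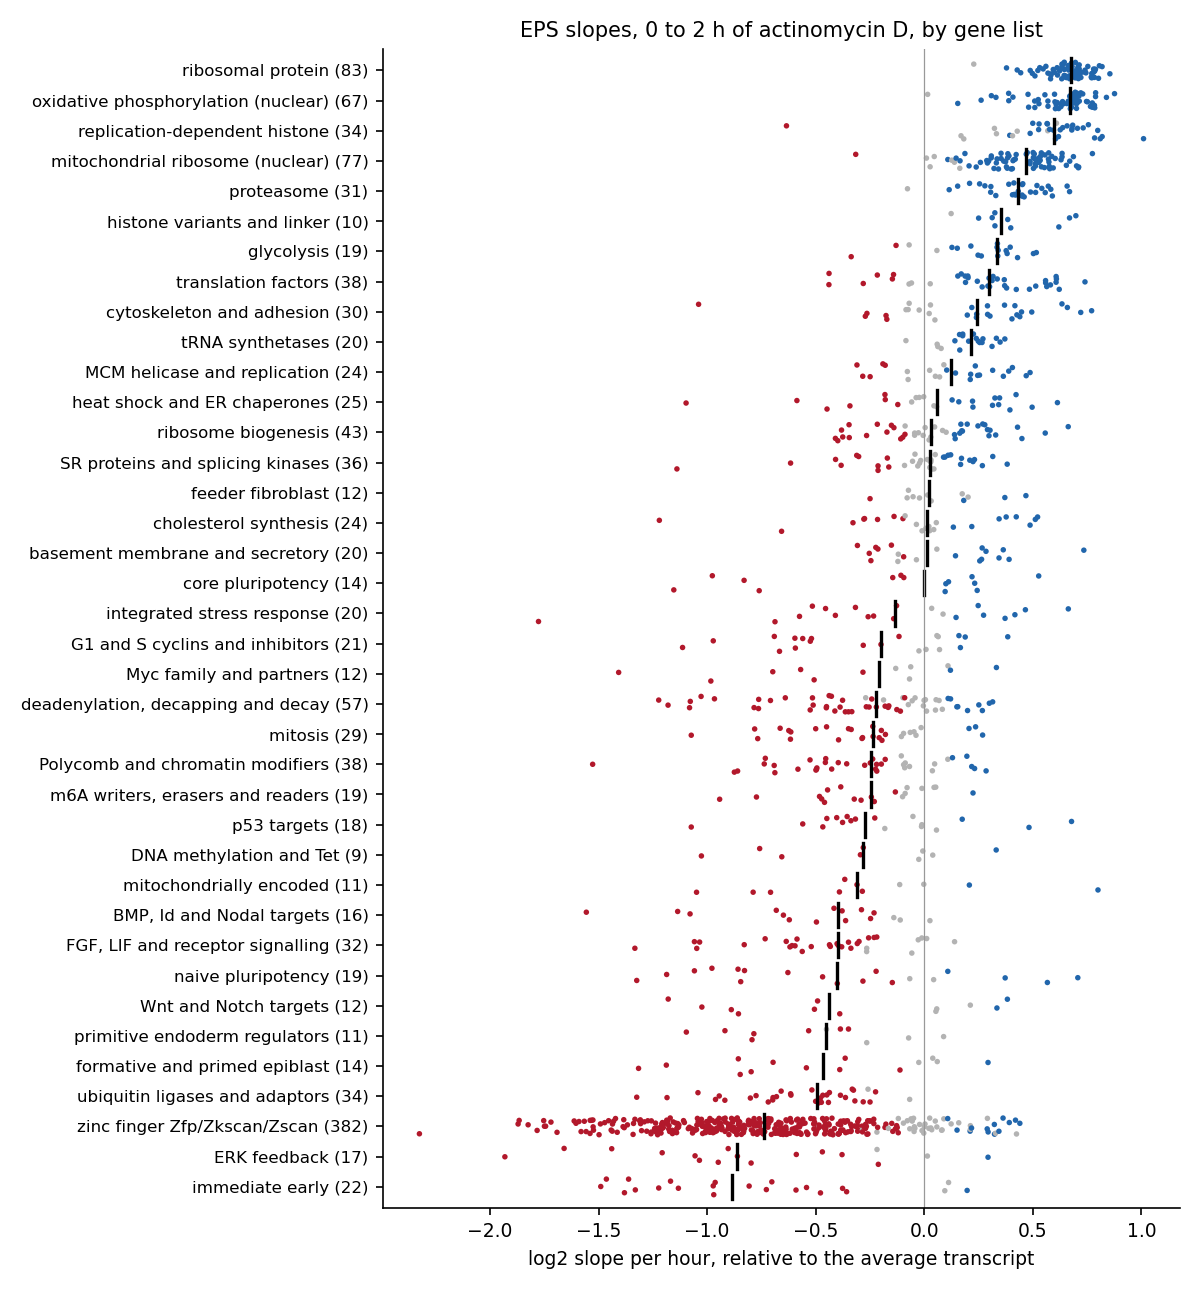
Log2 slope per hour of every tested gene (points) of the lists with at least 9 tested genes, with the number tested in parentheses, sorted by median (black bars); red points fell, blue points rose and grey points did not pass the test. Immediate early, ERK feedback and zinc finger genes lie at the bottom with medians of -0.88, -0.86 and -0.74, ribosomal protein genes at the top with 0.67; scaled to ribosomal protein transcripts, the medians of ribosomal protein, oxidative phosphorylation and replication-dependent histone genes alone stay above 0 among these lists.

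Ubiquitin ligases and their adaptors fell almost throughout (32 of 34 tested, 0 rose; median -0.49). Fbxo5, the inhibitor of the anaphase-promoting complex, measured 132 and 128 CPM at 0 h, 66.2 and 67.2 CPM at 1 h, and 24.1 and 25.03 CPM at 2 h (slope -1.18 ± 0.059, adjusted p = 9.65e-07). Kbtbd8 (-0.96), Fbxo30 (-0.80) and Peli1 (-0.72) fell as well. The proteasome that these enzymes feed stood at the other end: 30 of 31 subunit genes rose and 0 fell, with a median of 0.43 (-0.23 when scaled to ribosomal protein transcripts). That is near the level of short transcripts in general. The 18 subunit genes with transcripts of 345 to 1755 nt had a median of 0.45, against 0.43 for 1600 other genes of that length.

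Factors that act on mRNA themselves had unequal rates. Of 57 tested genes of deadenylation, decapping and decay 34 fell and 9 rose (median -0.22), against 34.9% and 32.2% of all genes. Their median transcript length was 4448 nt. Among genes of at least 10 CPM with transcripts of 3616 to 5098 nt, 51.7% fell (median -0.13). Zfp36l2, a protein that binds AU-rich elements and recruits deadenylases, measured 42.5 and 46.7 CPM at 0 h, 19.8 and 20.1 CPM at 1 h, and 9.95 and 10.2 CPM at 2 h (slope -1.08 ± 0.047, adjusted p = 4.45e-07). Pum2 (-0.64), which binds Pumilio motifs, the silencing scaffold gene Tnrc6a (-0.76) and the ligase subunit Cnot4 (-0.71) were lost less steeply. The 9 that rose included Upf3a (0.32), a factor of nonsense-mediated decay, the exosome subunit gene Exosc3 (0.30) and Lsm1 (0.27), named after their values were seen; scaled to ribosomal protein transcripts all 57 fell. Without the second library at 0 h the slope of Lsm1 was 0.19 and did not pass the test.

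Among 19 tested genes of the m6A machinery 12 fell and 1 rose (median -0.24). The adaptor subunits of the writer fell: Cbll1 measured 45.04 and 45.9 CPM at 0 h, 23.1 and 26.4 CPM at 1 h, and 12.6 and 11.7 CPM at 2 h (slope -0.94 ± 0.049, adjusted p = 1.11e-06), and Wtap and Zc3h13 had slopes of -0.46 and -0.48. The catalytic subunit gene Mettl3, named after its value was seen, had a slope of -0.088 ± 0.048 that did not pass the test. Ythdf2, a reader that promotes decay, measured 138 and 133 CPM at 0 h, 106 and 106 CPM at 1 h, and 75.2 and 70.7 CPM at 2 h (slope -0.45 ± 0.039, adjusted p = 1.66e-05), and the reader gene Ythdf1 fell at -0.38. The stabilising readers Igf2bp1, Igf2bp2 and Igf2bp3, also named after their values were seen, did not pass the test (0.045 ± 0.035, 0.053 ± 0.037 and -0.079 ± 0.038).

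Chromatin regulators fell more often than they rose: 25 of 38 tested fell and 5 rose (median -0.24). Their transcripts are long, with a median of 5935.5 nt. Among all genes of at least 10 CPM with transcripts of 5099 to 23495 nt, 78.5% fell (median -0.31). Kmt2c, a histone methyltransferase of enhancers, measured 25.2 and 21.5 CPM at 0 h, 4.903 and 3.81 CPM at 1 h, and 3.86 and 3.25 CPM at 2 h. Relative to the average transcript its level dropped in the first hour and moved little in the second (slope -1.53 ± 0.19, adjusted p = 1.08e-04). Scaled to ribosomal protein transcripts Kmt2c had 9.63% left at 1 h and 6.07% at 2 h. With the 3 h libraries in the fit its slope was 0.15. Kdm6a (-0.87), Arid1a (-0.74), Ep300 (-0.73), Kdm2b (-0.53) and Kdm5b (-0.50), enzymes and subunits that modify or remodel nucleosomes, fell too. The 3 Tet genes, whose enzymes oxidise methylcytosine, all fell: Tet1 measured 422 and 423 CPM at 0 h, 190.5 and 191 CPM at 1 h, and 151 and 146 CPM at 2 h (slope -0.76 ± 0.078, adjusted p = 4.01e-05), and Tet2 and Tet3 had slopes of -1.03 and -0.66. Dnmt1, the maintenance methyltransferase gene, fell at -0.29 and Dnmt3l rose at 0.33. The nuclear non-coding RNA Tug1 measured 3.61 and 3.43 CPM at 0 h, 0.204 and 0.3705 CPM at 1 h, and 0.301 and 0.1805 CPM at 2 h (slope -2.21 ± 0.24, adjusted p = 5.68e-05), on low counts, and its slope with the 3 h libraries was 0.40.

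Of 36 tested SR proteins, hnRNPs and splicing kinases, which choose splice sites, 10 fell and 12 rose, shares close to the 34.9% and 32.2% of all genes (median 0.026; all 36 fell when scaled to ribosomal protein transcripts). The kinase genes Clk1 and Clk4, which phosphorylate SR proteins, had the lowest slopes of that list. Clk1 measured 80.9 and 80.9 CPM at 0 h, 27.9 and 29.1 CPM at 1 h, and 17.2 and 17.3 CPM at 2 h (slope -1.14 ± 0.081, adjusted p = 5.43e-06) and Clk4 had a slope of -0.62. Hnrnpc (0.32) and Srsf9 (0.38) rose.

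Of 21 tested G1 and S phase cyclins, E2F factors and inhibitors 12 fell and 4 rose: E2f3 measured 64.2 and 60.7 CPM at 0 h, 26.6 and 26.6 CPM at 1 h, and 13.5 and 13.4 CPM at 2 h (slope -1.11 ± 0.045, adjusted p = 3.45e-07), and E2f7 (-0.97), the inhibitor gene Cdkn1b (-0.67) and the licensing factor Cdc6 (-0.52) fell too. Of 29 mitotic genes 20 fell and 3 rose (median -0.24), with slopes of -1.07 for Plk2, -0.78 for the cohesin protector Sgo1, -0.77 for the centriole kinase Plk4 and -0.66 for Kif20b. Of 24 genes of the MCM helicase and the replication fork 5 fell and 13 rose (median 0.12; -0.065 with library totals and -0.54 scaled to ribosomal protein transcripts, where all 24 fell). Tyms, thymidylate synthase, had a slope of 0.49 and Mcm10 one of -0.25.

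Targets of p53 fell in 10 of 18 cases and rose in 3 (median -0.27), against 34.9% and 32.2% of all genes. Mdm2, the ligase that degrades p53, measured 112 and 119 CPM at 0 h, 86.5 and 84.3 CPM at 1 h, and 60.8 and 63.3 CPM at 2 h (slope -0.45 ± 0.034, adjusted p = 7.34e-06). Cdkn1a, the cyclin-dependent kinase inhibitor p21, measured 71.9 and 73.7 CPM at 0 h, 50 and 47.3 CPM at 1 h, and 32.5 and 34.5 CPM at 2 h (slope -0.56 ± 0.037, adjusted p = 3.42e-06). The change in the second hour did not differ from that in the first by the test (-0.021, adjusted p = 0.835 for Mdm2 and 0.042, adjusted p = 0.740 for Cdkn1a), but with ribosomal protein scaling both lost more in the first hour (0.56, adjusted p = 1.73e-15 and 0.63, adjusted p = 7.18e-12). Trp53inp1 (-0.47) and Sesn2 (-0.32) fell, and the 3 that rose, named after their values were seen, were Bax (0.68), Fas (0.48) and Phlda3 (0.17); scaled to ribosomal protein transcripts, the slopes of Fas and Phlda3 were negative. Fas was not called without the second library at 0 h (0.40) or either at 2 h (0.48 and 0.48), nor Phlda3 without either at 0 h (0.13 and 0.15) or the first at 2 h (0.19).

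In the integrated stress response 11 of 20 tested genes fell and 7 rose, against 34.9% and 32.2% of all genes. Besides Chac1, the bZIP factor gene Cebpg (-0.69) and the phosphatase subunit gene Ppp1r15a (-0.57) fell, while the serine synthesis enzyme Phgdh rose (0.42). Of 25 chaperone genes 7 fell and 12 rose, against 34.9% and 32.2% of all genes. Their slopes ran from -1.10 for Dnajb9, an inducible co-chaperone of the endoplasmic reticulum, to 0.61 for Hspe1, the mitochondrial chaperonin. Of 24 sterol genes 8 fell and 8 rose, about the shares of all genes (34.9% and 32.2%); 22 of the 24 fell when scaled to ribosomal protein transcripts. Of the enzymes of the pathway, Idi1 fell (-0.66) and Ebp rose (0.42; -0.24 when scaled to ribosomal protein transcripts).

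Ribosomal protein genes rose in 82 of 83 cases and fell in 0 (median 0.67; near 0, by construction, when scaled to themselves, at 0.011). Rplp0 measured 2063 and 1977 CPM at 0 h, 3568 and 3483 CPM at 1 h, and 4552 and 4529 CPM at 2 h (slope 0.58 ± 0.063, adjusted p = 4.98e-05). Of 67 nuclear genes of oxidative phosphorylation 66 rose and 0 fell (median 0.67, from 0.016 to 0.88); scaled to ribosomal protein transcripts 14 fell and 4 rose (median 0.015). Genes of the mitochondrial ribosome rose in 70 of 77 cases (median 0.47; -0.19 scaled to ribosomal protein transcripts). The exception in that list, named after its value was seen, was Mrps2, which fell (-0.32). Replication-dependent histone genes rose in 25 of 34 tested cases (median 0.60), on low counts and with near-identical copies among them; 47 of the 81 listed did not pass the low-count filter.

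Glycolysis genes rose in 15 of 19 cases and fell in 2 (median 0.34; -0.33 scaled to ribosomal protein transcripts). Gapdh, often taken as a reference gene, measured 2097 and 2074 CPM at 0 h, 3158 and 3029 CPM at 1 h, and 3778 and 3789 CPM at 2 h (slope 0.43 ± 0.052, adjusted p = 8.00e-05). Hexokinase 2, at the entry of the pathway, fell: Hk2 measured 251 and 250.5 CPM at 0 h, 182 and 186 CPM at 1 h, and 159 and 156 CPM at 2 h (slope -0.34 ± 0.037, adjusted p = 5.37e-05). Slc2a1, the glucose transporter gene, was the other fall (-0.13; named after its value was seen); it was not called without the first library at 0 h (-0.15) or either at 2 h (-0.11 and -0.093). Actb, another reference gene, measured 1871 and 1879 CPM at 0 h, 2369 and 2406 CPM at 1 h, and 2793 and 2827 CPM at 2 h (slope 0.29 ± 0.043, adjusted p = 2.60e-04). Against the average transcript Rplp0, Gapdh and Actb thus rose by different amounts, and scaled to ribosomal protein transcripts they had slopes of -0.079, -0.23 and -0.37.

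Translation factors rose in 29 of 38 cases and fell in 6 (median 0.30; -0.36 scaled to ribosomal protein transcripts). The 2 steepest of the falls were Eif3a, the largest subunit of its initiation complex, which measured 938 and 924 CPM at 0 h, 660.1 and 634 CPM at 1 h, and 517 and 497 CPM at 2 h (slope -0.44 ± 0.040, adjusted p = 1.99e-05), and Eif1a (-0.44). Other subunits of the same complex rose, such as Eif3h (0.42) and Eif3i (0.56). Messages whose proteins work in 1 complex thus differed in loss. They also differed in length: Eif3a (5125 nt) belongs with transcripts of 5099 to 23495 nt, whose median slope was -0.31. Eif3h (1295 nt) and Eif3i (1123 nt) belong with those of 345 to 1755 nt, with a median of 0.43. Of 20 tRNA synthetase genes 16 rose and 0 fell (median 0.22; -0.45 scaled to ribosomal protein transcripts). Of 43 ribosome biogenesis factors 14 fell and 18 rose, against 34.9% and 32.2% of all genes, and 42 fell when scaled to ribosomal protein transcripts. Fbl, the methyltransferase of small nucleolar particles, had a slope of 0.56, whereas the assembly factors Rrs1 and Wdr43 had slopes of -0.41 and -0.38.

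Of 30 cytoskeleton and adhesion genes 18 rose and 5 fell (median 0.24; -0.42 scaled to ribosomal protein transcripts, where 26 fell and 1 rose), with slopes of 0.77 for Tmsb10 and 0.66 for Pfn1, which bind actin monomers, and -1.04 for the laminin receptor subunit Itga6, the last named after its value was seen. Of 20 basement membrane and secretory genes 9 rose and 7 fell, near the 32.2% rising and 34.9% falling among all genes. Their slopes ran from -0.31 for the laminin chain Lama5 to 0.74 for the lectin Lgals1 (median 0.011). Scaled to ribosomal protein transcripts, 19 of the 20 fell. Of 12 fibroblast markers, the kind of cell used as feeder layers, 3 rose and 1 fell (all 12 fell under ribosomal protein scaling) and the median was 0.024.

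Transcripts made in mitochondria, by a polymerase of their own, did not move together. Of 13 listed 11 were tested, 7 fell and 2 rose. mt-Nd1 measured 4347 and 4455 CPM at 0 h, 2631 and 2712 CPM at 1 h, and 1628 and 1672 CPM at 2 h (slope -0.71 ± 0.044, adjusted p = 2.38e-06). mt-Nd2 measured 1818 and 1935 CPM at 0 h, 619.6 and 649 CPM at 1 h, and 429 and 450.1 CPM at 2 h (slope -1.05 ± 0.10, adjusted p = 3.12e-05). mt-Nd5 measured 2069 and 2233 CPM at 0 h, 705 and 752 CPM at 1 h, and 695 and 751 CPM at 2 h (slope -0.79 ± 0.14, adjusted p = 8.76e-04). All 3 encode subunits of complex I; mt-Nd2 and mt-Nd5 lost most in the first hour. The hours did not differ by the test for mt-Nd1 (0.025, adjusted p = 0.563), though they did with library totals (0.12, adjusted p = 1.28e-04) and ribosomal protein scaling (0.61, adjusted p = 1.87e-91). mt-Nd4 fell at -0.29. mt-Nd3, with levels of only 3.38 and 3.82 CPM at 0 h, 6.13 and 6.62 CPM at 1 h, and 11.5 and 10.8 CPM at 2 h, rose (0.80 ± 0.061), and mt-Co2 had a slope of 0.21 (adjusted p = 0.0454; named after its value was seen), a call that was lost whichever library was left out (0.16 to 0.25) and a slope of -0.44 with ribosomal protein scaling, while mt-Co3 had a slope of -0.002 ± 0.11 and did not pass the test.

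The time course also allowed the hours to be compared. In the first hour 4591 genes fell (35.2%) and 4593 rose (35.3%), and in the second 3069 fell (23.6%) and 2889 rose (22.2%). The test of the difference between the hours called 3438 genes with a lower change in the second hour (26.4%) and 2079 with a higher one (16%). Both directions depend on what the libraries are scaled to: with ribosomal protein scaling the counts were 141 and 8044. The 2 changes share the 1 h libraries.

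Chac1, Pnrc1, Cdkn2d, Kmt2c, Ankhd1, Vps13c and mt-Nd5 were among the 5 largest differences in either direction that passed the test in genes of at least 10 CPM; the others given here were named after their values were seen. Nodal fell more in the second hour (-1.17 in the first hour and -2.17 in the second; difference -0.997 ± 0.18, adjusted p = 1.42e-07), and so did Klf2 (-0.97 ± 0.072, adjusted p = 8.71e-39), Chac1 (-1.11 ± 0.24, adjusted p = 3.16e-05) and Pnrc1, a nuclear receptor coactivator gene (-0.67 in the first hour and -1.99 in the second; difference -1.32 ± 0.16, adjusted p = 8.11e-15). Cdkn2d, an inhibitor of cyclin-dependent kinases, measured 8.31 and 9.79 CPM at 0 h, 12.3 and 13.2 CPM at 1 h, and 8.500 and 8.603 CPM at 2 h, relative to the average transcript higher at 1 h than at either other time (difference -1.05 ± 0.18, adjusted p = 2.58e-08). Scaled to ribosomal protein transcripts Cdkn2d had 72.6% left at 1 h and 37.7% at 2 h, with no peak at 1 h. Txnip, Spry4 and Kmt2c lost most in the first hour, and the differences were 1.01 ± 0.10, adjusted p = 5.46e-21 for Txnip, 0.85 ± 0.12, adjusted p = 1.08e-11 for Spry4 and 2.10 ± 0.26, adjusted p = 7.63e-15 for Kmt2c. Relative to the average transcript, Ankhd1, Vps13c and mt-Nd5 fell little or not at all after 1 h: Ankhd1 measured 39.9 and 40.7 CPM at 0 h, 10.5 and 10.1 CPM at 1 h, and 8.56 and 8.002 CPM at 2 h (difference 1.64 ± 0.17, adjusted p = 4.54e-20), Vps13c measured 20.3 and 20.4 CPM at 0 h, 8.53 and 7.41 CPM at 1 h, and 9.89 and 8.42 CPM at 2 h (difference 1.53 ± 0.19, adjusted p = 5.41e-15), and the difference of mt-Nd5 was 1.55 ± 0.12, adjusted p = 0.00162. Scaled to ribosomal protein transcripts Ankhd1 went from 13.2% left at 1 h to 8.19% at 2 h, Vps13c from 20.2% to 17.9% and mt-Nd5 from 17.5% to 13.4%. With the 3 h libraries in the fit, the slopes of Ankhd1 and Vps13c were 0.069 and 0.41. The differences between the hours named here kept their sign and their call when libraries were scaled to totals or to ribosomal protein transcripts. Dusp1, Dusp6, Socs3, Fgf4 and Axin2 had differences between -0.11 and 0.12, none of which passed the test. With ribosomal protein scaling they were 0.496 for Dusp1 (adjusted p = 0.0780), 0.49 for Dusp6 (adjusted p = 0.00275), 0.52 for Socs3 (adjusted p = 1.26e-05), 0.53 for Fgf4 (adjusted p = 1.62e-09) and 0.70 for Axin2 (adjusted p = 2.21e-08), so all but Dusp1 were then called.

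**Figure D3:**
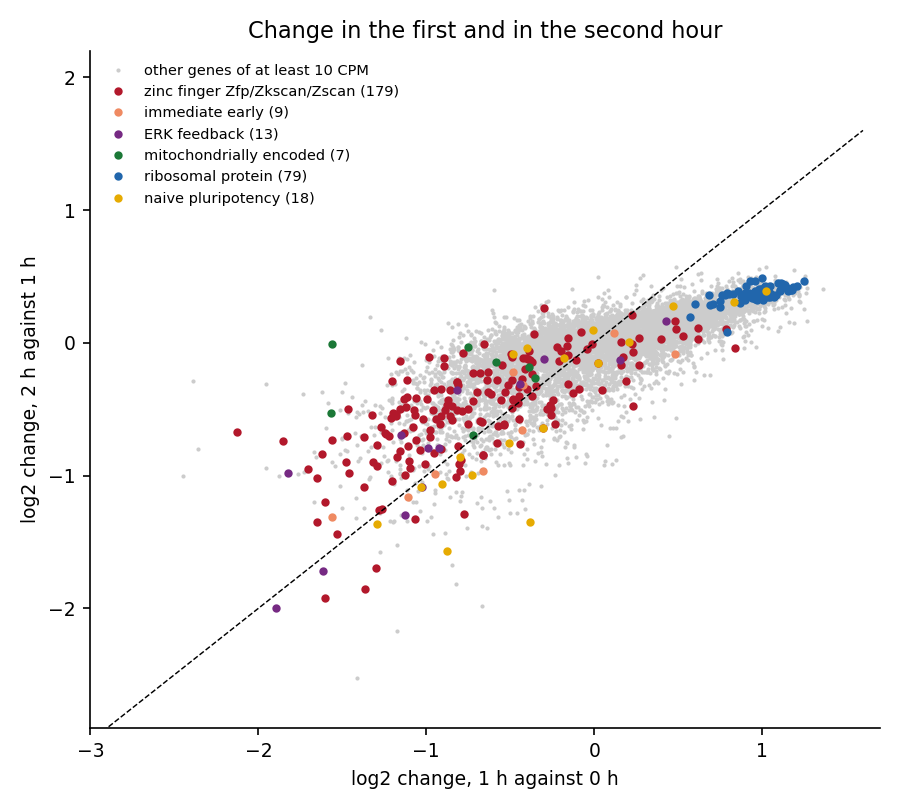
Log2 change in the second hour against that in the first for the 8257 genes of at least 10 CPM (grey), with members of 6 lists in colour and the number shown in parentheses; the dashed line marks equal changes. Ribosomal protein genes lie on the right, below the line, and most zinc finger genes on the left, above it; mt-Nd5 is the mitochondrial gene at -1.56 and -0.01.

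Features of the transcripts that the slope did not use were read from the GENCODE M21 model of each gene, with 8090 of the 8257 genes of at least 10 CPM matched by symbol (98.0%). As a description across genes, which are not independent, the slope had a Spearman correlation of -0.69 with transcript length, -0.57 with the length of the coding sequence and -0.49 with that of the 3′ UTR. Genes were split into 5 classes of equal size by length. In the shortest class (345 to 1755 nt) the median slope was 0.43 and 86.8% rose. In the longest (5099 to 23495 nt) it was -0.31 and 78.5% fell. The GC content at the last codon position went with the slope at 0.32, exon junctions per kb at 0.31 and the mean CPM at 0.30.

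Motifs of the 3′ UTR, searched on the transcript strand, were more frequent in transcripts that were lost fast. ATTTA, the core pentamer of AU-rich elements (present in 69.4% of the 3′ UTRs, and contained in the nonamer), had a Spearman correlation of -0.48 with the slope by its number of copies: the median slope was 0.24 with 0 copies and -0.29 with 8 or more, of which 73.3% fell. Longer 3′ UTRs hold more copies, so the comparison was repeated within 5 classes of 3′ UTR length. In the middle class (794 to 1430 nt) the median was -0.13 with 3 or more copies and 0.092 with 0. The Pumilio motif TGTANATA, found in 26.9% of 3′ UTRs, gave -0.16 with and 0.037 without it in the same class, and the nonamer -0.11 with and 0.0063 without it. Over all lengths the medians were -0.22 with the nonamer and 0.034 without it. GGACT, a sequence in which m6A is often placed, was counted over the transcript model and correlated at -0.45, with no correction for length.

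**Figure D4:**
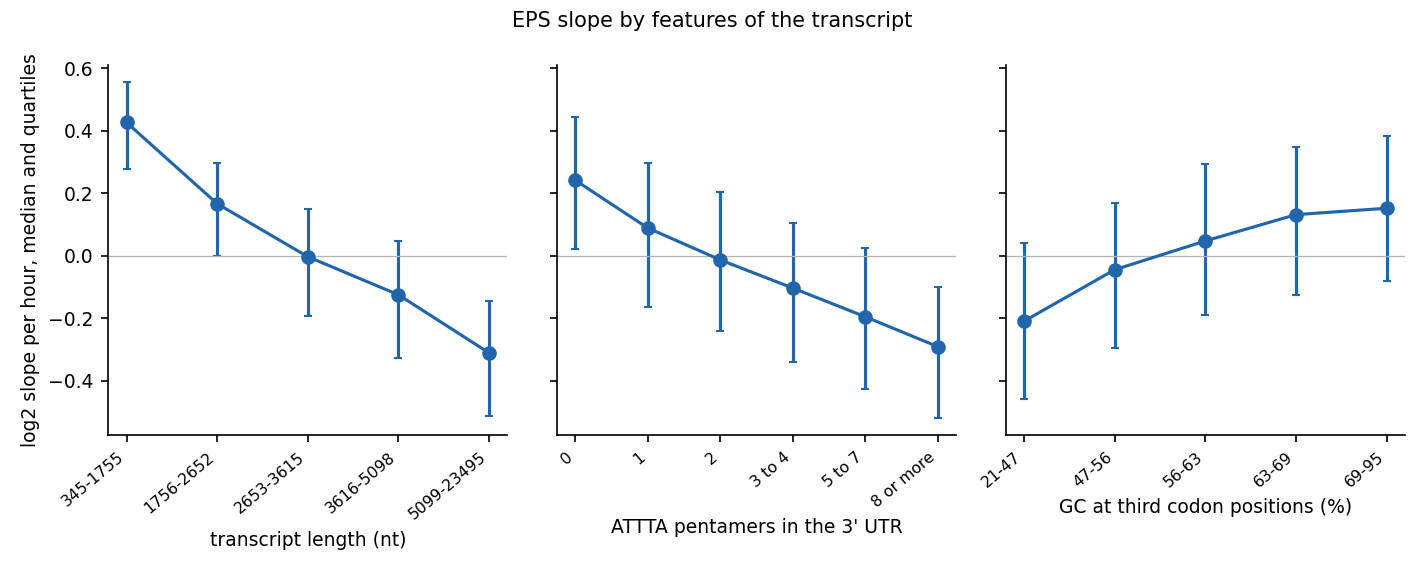
Median EPS slope (points) with quartiles (bars) of 8090 genes of at least 10 CPM in 5 classes of transcript length, in classes of the number of ATTTA pentamers in the 3′ UTR, and in 5 classes of GC content at the last codon position. The median goes from 0.43 in the shortest to -0.31 in the longest transcripts, from 0.24 without the pentamer to -0.29 with 8 or more, and from -0.21 at the lowest to 0.15 at the highest GC content.

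Length alone did not line up the named genes. Dusp1 (1990 nt), Sox2 (2057 nt), Myc (2338 nt), Klf2 (1847 nt) and Actb (1920 nt) belong to the same class of transcript length (1756 to 2652 nt, median slope 0.17) and had slopes of -1.93, -1.15, -1.41, -0.85 and 0.29. Ier2 (1522 nt) and Pou5f1 (1362 nt) lay in the shortest class with slopes of -0.81 and 0.53. Sox2 and Ier2 are single-exon transcripts, a class of 91 genes with a median slope of -0.22, and Pou5f1 has 5 exons and 0 copies of ATTTA. Zinc finger genes were lower than other genes in each class of length that held enough of them: -0.58 for 25 members against 0.17 for 1596 others at 1756 to 2652 nt, -0.46 for 50 against 0.0050 for 1565 at 2653 to 3615 nt, -0.69 for 42 against -0.12 for 1576 at 3616 to 5098 nt and -0.77 for 49 against -0.31 for 1569 at 5099 to 23495 nt. Ribosomal protein genes lay above others of the shortest class (0.67 for 70 members against 0.42 for 1548 others), as did oxidative phosphorylation genes (0.68 for 59 against 0.42 for 1559). The gap was smaller for the mitochondrial ribosome (0.51 for 49 against 0.43 for 1569) and the proteasome (0.45 for 18 against 0.43 for 1600).

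The comparison with PrEdiff cells asked whether a gene's loss depends on the cell state. Across the 8257 genes the slopes of the 2 states, which share no library, had a Pearson correlation of 0.96 and a Spearman correlation of 0.96. The spread was wider in EPS (SD 0.39 against 0.29 over the 8090 matched genes), with a regression slope of PrEdiff on EPS of 0.72. The relation to transcript length was similar (Spearman -0.69 in EPS and -0.66 in PrEdiff). In the fit of 12 libraries, 532 of 14060 genes had a lower slope in PrEdiff (3.78%) and 394 a higher one (2.8%). That count is not stable: it was 53 and 1126 with library totals, 6 and 968 with ribosomal protein scaling and 13 and 69 with the replicate number as a block.

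Of the pluripotency and endoderm factors compared, Sox2 was lost faster in EPS (slopes of -1.11 in EPS and -0.78 in PrEdiff; difference, PrEdiff minus EPS, 0.34 ± 0.084, adjusted p = 0.0316), and Pou5f1 gained less share in PrEdiff (0.56 and 0.36; difference -0.20 ± 0.057, adjusted p = 0.0443). Both slopes were nearer 0 in PrEdiff. The difference of Pou5f1 was not called with library totals (-0.12, adjusted p = 0.148) or ribosomal protein scaling (-0.0096, adjusted p = 0.865), and that of Sox2 was called under both. With the replicate number as a block neither passed the test (adjusted p = 0.0885 for Sox2 and 0.108 for Pou5f1). Gata4 differed in the other way, at 0.12 in EPS and -0.47 in PrEdiff (difference -0.60 ± 0.10, adjusted p = 0.0069), on 2.79 to 4.47 CPM in EPS and 76.4 to 156 CPM in PrEdiff. Nanog (-0.043 ± 0.036, adjusted p = 0.489), Gata6 (-0.088 ± 0.10, adjusted p = 0.684), Sox7 (-0.33 ± 0.39, adjusted p = 0.638) and Pdgfra (-0.16 ± 0.083, adjusted p = 0.227) did not pass the test, and neither did Sox17 (adjusted p = 0.984), whose counts in EPS at 2 h were at or near 0, too few to show a difference.

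Other genes were named by the size of the difference, the 4 largest in each direction among genes of at least 10 CPM that passed the test. Cox17, a copper chaperone of cytochrome oxidase, had slopes of 0.22 in EPS and -0.76 in PrEdiff (difference -0.99 ± 0.21, adjusted p = 0.0206), and Mettl17, a mitochondrial methyltransferase, 0.15 and -0.42 (difference -0.57 ± 0.085, adjusted p = 0.00232). The PrEdiff slope of Cox17 was not a steady loss. In PrEdiff it measured 15.8 and 14.9 CPM at 0 h, 3.92 and 4.53 CPM at 1 h, and 5.94 and 6.41 CPM at 2 h, scaled over the 12 libraries. Chchd7 (-0.43 ± 0.090, adjusted p = 0.0176) and Arglu1 (-0.43 ± 0.054, adjusted p = 0.00116) also had lower slopes in PrEdiff. In the other direction Zfp936 had slopes of -0.87 and -0.053 (difference 0.82 ± 0.11, adjusted p = 0.00125), mt-Nd2 -1.01 and -0.37 (difference 0.65 ± 0.12, adjusted p = 0.012), Rex2 -1.03 and -0.35 (difference 0.68 ± 0.13, adjusted p = 0.0146) and Kmt2c -1.54 and -0.77 (difference 0.77 ± 0.20, adjusted p = 0.0336). With the replicate number as a block, Kmt2c (adjusted p = 0.0910), Cox17 (0.0703), Chchd7 (0.0553) and Rex2 (0.0539) did not pass the test. Zfp936 measured 39.4 and 38.2 CPM at 0 h and 11.97 and 12.4 CPM at 2 h in EPS, against 7.01 and 6.42 CPM and 6.99 and 5.54 CPM in PrEdiff, scaled over the 12 libraries. Thus the level that remained at 2 h differed less between the states than the level at the start.

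Of 167 other genes named in the text, 45 passed the same test, 38 with a higher and 7 with a lower slope in PrEdiff. Over all 14060 genes tested, 2.8% were higher and 3.78% lower. Many of the 167 were named by their EPS slope, which enters the difference, so the shares are not comparable. With the replicate block, without each of the 12 libraries and with RLE, library total and ribosomal protein scaling, 15 of the 45 kept the call. All 15 had higher slopes in PrEdiff and were named after their values were seen. That direction was largely set by the filter, since ribosomal protein scaling left 6 genes lower and 968 higher among all tested. Fgf4, the ligand, had slopes of -1.02 in EPS and -0.53 in PrEdiff (difference 0.49 ± 0.058, adjusted p = 6.21e-04). The FGF and ERK inhibitors Il17rd (difference 0.51 ± 0.054, adjusted p = 3.46e-04), Dusp1 (0.54 ± 0.086, adjusted p = 0.00359) and Spred2 (0.29 ± 0.049, adjusted p = 0.00547) were also lost less steeply in PrEdiff. The same held for the Wnt receptors Fzd5 (0.56) and Fzd7 (0.40), the decoy receptor Bambi (0.56), the RNA-binding factors Zfp36l2 (0.40), Pum2 (0.21) and Tnrc6a (0.44), and E2f7 (0.47), Klf6 (0.34), Zfp97 (0.62) and mt-Nd1 (0.54). Slc2a1 went from -0.094 in EPS to 0.17 in PrEdiff (difference 0.26 ± 0.049, adjusted p = 0.0118). Slopes were flatter in PrEdiff across genes (regression slope of 0.72 on EPS), and Dusp1 had -1.90 in EPS and -1.36 in PrEdiff. How far the differences named here go beyond that general flattening was not tested.

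**Figure D5:**
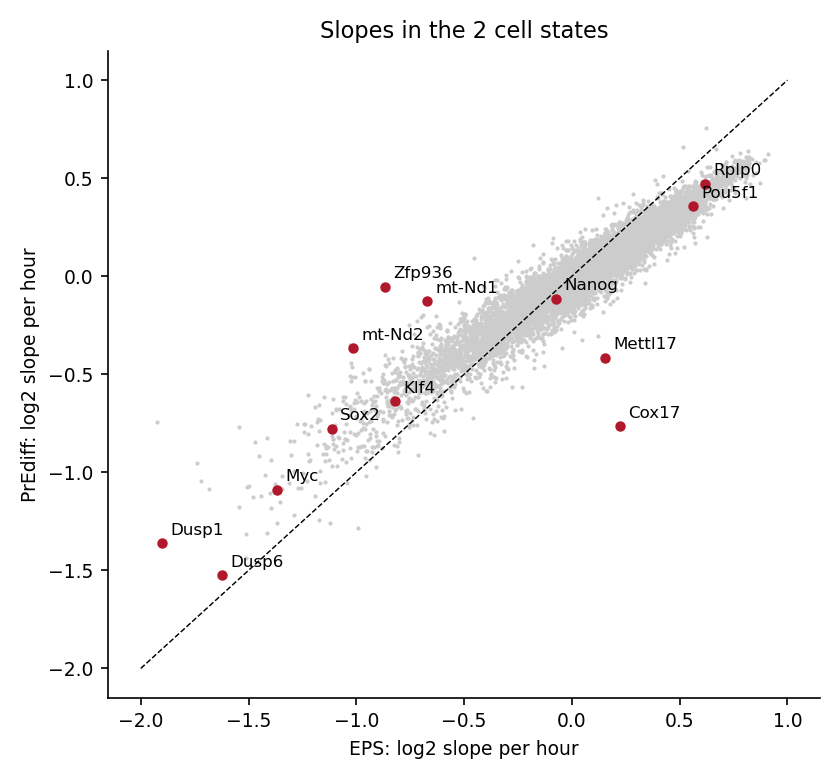
Log2 slope per hour in PrEdiff against EPS for genes of at least 10 CPM (grey), both from the fit of 12 libraries, with 13 named genes in red; the dashed line marks equal slopes. The cloud is flatter than the line, Cox17 and Mettl17 lie below it, and Zfp936, mt-Nd1 and mt-Nd2 lie above it.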

How the data were processed

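RNA-seq gene counts of the actinomycin D libraries were used as the authors deposited them, in 1 table of 21812 genes. Per the labels' protocols, total RNA was extracted with TRIzol and libraries were made with the SMARTer Stranded Total RNA-Seq v2 or VAHTS Universal v8 kit; which kit made which library is not given in the sources used here, nor are the annotation and the strand setting of the counting, so antisense and near-identical genes are uncertain. FastQC 0.12.1, Trim Galore, STAR 2.7.11b, Subread, DESeq2 and the build mm39 are named in the submitters' processing notes.

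Low counts were filtered with filterByExpr (minimum count 10, total 15), libraries were scaled by TMM and tested with edgeR 4.0.16's quasi-likelihood test in R 4.3.3, with Benjamini-Hochberg adjustment over all genes tested. The slope used hours as a number over 6 libraries, the difference between the hours a model with 3 times, and the comparison of states 12 libraries. CPM values and log2 fold changes (prior count 2) were computed from the deposited counts, and an SE is the size of the log2 value divided by the square root of the test's F. The test was run on simulated data for the EPS slope (13027 genes): 50 of 50 slopes of -1, 43 of 50 of -0.5, 48 of 50 of 0.5 and 50 of 50 of 1 were recovered, with 17 calls among 12683 unchanged genes. Only these few genes changed in the simulation, as many up as down. It held no shift in composition like that of the data, so it could not show how such a shift bears on the scaling. At this depth, a median coefficient of variation of 2.29% was seen between libraries of a time.

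Genes were named as the 12 largest falls and 12 largest rises of at least 10 CPM, in each list the 5 with the lowest adjusted p, and a set of regulators and reference genes; not all of them are printed, and some are not reported here. For the difference between the hours the rule took the 5 largest called in each direction at the same level, and for that between the states the 4 largest likewise and 8 regulators. The members and lists were chosen with earlier results of these data known. Transcript features came from GENCODE M21 (GRCm38) by symbol, without coordinates, since the counts are on mm39. DESeq2 1.42.0, other scalings and filters, the replicate block, the 3 h libraries, the 2 h against 0 h contrast and leaving out each library were the alternatives.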

Additional observations from a re-analysis of the deposited data

Results flagged for a closer look

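The test of the slope difference between the states, PrEdiff minus EPS in edgeR's quasi-likelihood test over 12 libraries, called 11 of the 16 genes compared by rule and 45 of 167 other genes named in the text. Among the 16, slopes were lower in PrEdiff for Cox17 (-0.99, adjusted p = 0.0206), Gata4 (-0.60, adjusted p = 0.00690), Mettl17 (-0.57, adjusted p = 0.00232), Chchd7 (-0.43, adjusted p = 0.0176), Arglu1 (-0.43, adjusted p = 0.00116) and Pou5f1 (-0.20, adjusted p = 0.0443). They were higher for Zfp936 (0.82, adjusted p = 0.00125), Kmt2c (0.77, adjusted p = 0.0336), Rex2 (0.68, adjusted p = 0.0146), mt-Nd2 (0.65, adjusted p = 0.0120) and Sox2 (0.34, adjusted p = 0.0316). Of the 45, those that kept the call with the replicate block, without each library in turn and with 3 other scalings were all higher in PrEdiff: Zfp97 (0.62, adjusted p = 0.00607), Bambi (0.56, adjusted p = 0.0141), Fzd5 (0.56, adjusted p = 0.00125), mt-Nd1 (0.54, adjusted p = 0.00125), Dusp1 (0.54, adjusted p = 0.00359), Il17rd (0.51, adjusted p = 0.000346), Fgf4 (0.49, adjusted p = 0.000621), E2f7 (0.47, adjusted p = 0.00883), Tnrc6a (0.44, adjusted p = 0.00150), Fzd7 (0.40, adjusted p = 0.00125), Zfp36l2 (0.40, adjusted p = 0.00243), Klf6 (0.34, adjusted p = 0.00261), Spred2 (0.29, adjusted p = 0.00547), Slc2a1 (0.26, adjusted p = 0.0118) and Pum2 (0.21, adjusted p = 0.00903). That direction was largely set by the filter, since ribosomal protein scaling left 6 genes lower in PrEdiff and 968 higher among all tested. Slopes were also flatter in PrEdiff across genes (regression slope of 0.72 on EPS).

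Leaving out each of the 12 libraries in turn, Mettl17, Arglu1 and Zfp936 passed the test every time, with adjusted p of at most 0.0201, 0.0160 and 0.0133. For the other genes the highest adjusted p was 0.0510 for Gata4, 0.0535 for mt-Nd2, 0.0665 for Rex2, 0.0856 for Cox17, 0.0953 for Kmt2c, 0.109 for Sox2, 0.143 for Chchd7 and 0.566 for Pou5f1. With ribosomal protein scaling the differences of Cox17 (-0.75, adjusted p = 0.0959), Mettl17 (-0.36, adjusted p = 0.0736), Chchd7 (-0.25, adjusted p = 0.0736), Kmt2c (0.91, adjusted p = 0.0609) and Pou5f1 were not called. With the replicate block the adjusted p was 0.0110 for Arglu1 and Zfp936, 0.0136 for Mettl17, 0.0276 for Gata4 and 0.0395 for mt-Nd2, and 0.0539 for Rex2, 0.0553 for Chchd7, 0.0703 for Cox17, 0.0885 for Sox2, 0.0910 for Kmt2c and 0.108 for Pou5f1.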

How the results depend on the processing

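A slope relative to the average transcript turns on what the average is. Library totals gave 6945 genes lower and 2240 higher over 0 to 2 h, 2863 higher at 1 h, and 5285 lower and 1167 higher in the second hour. Ribosomal protein scaling gave 11661 and 36 for the slope, 11620 and 143 for the first hour, 9535 and 65 for the second, and 141 and 8044 for the difference between the hours. With the 3 h libraries the slope called 1936 genes lower and 1304 higher. DESeq2 called 1803 genes lower in the second hour and 1905 with a lower change in the second hour than in the first. For the difference between the states, genes lower in PrEdiff numbered 160 with DESeq2-type (RLE) size factors, 326 with DESeq2, and 53 with library totals (1126 higher) and 6 with ribosomal protein scaling (968 higher).

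Leaving out 1 library at a time gave 3856 to 4619 genes lower and 3389 to 4250 higher for the slope, 4224 to 4620 and 4244 to 4601 for the first hour, 2535 to 3061 and 2447 to 2840 for the second, and 2808 to 3255 and 1564 to 1962 for the difference between the hours. The difference between the states ranged from 7 to 1384 genes lower and from 87 to 628 higher. Its lower count was 10 without the first EPS library at 0 h, 8 without the second, 7 and 11 without the first and second PrEdiff libraries at 0 h, 35 and 42 without those at 2 h, 200 and 203 without those at 1 h, 1384 and 1310 without the EPS libraries at 1 h, and 884 without the second EPS library at 2 h.

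Replicate numbers are shared between times, but same-numbered libraries did not deviate together (correlations of deviations 0.033, 0.012 and 0.036 over 8257 genes), so the numbers were not taken as pairs. With the replicate number as a block the slope called 8290 genes against 8743, of which 8267 were shared, and the difference between the states 13 genes lower and 69 higher.

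Slopes of single genes that changed sign were, with ribosomal protein scaling, Actb -0.37, Arglu1 -0.58, Cdx1 -0.28, Chchd7 -0.0535, Cox17 -0.47, Dnmt3a -0.62, Dnmt3l -0.33, Dppa3 -0.0899, Ebp -0.24, Eif3h -0.24, Eif3i -0.10, Etv4 -0.37, Exosc3 -0.36, Fas -0.11, Fbl -0.11, Gapdh -0.23, Gata4 -0.56, Hes6 -0.32, Hnrnpc -0.35, Hspe1 -0.0495, Igf2bp1 -0.62, Igf2bp2 -0.61, Jund -0.46, Lsm1 -0.39, Mettl17 -0.54, Nr0b1 -0.55, Pfn1 -0.00372, Phgdh -0.25, Phlda3 -0.49, Pou5f1 -0.14, Rplp0 -0.0792, Srsf9 -0.28, Tcl1 -0.29, Tyms -0.17, Upf3a -0.35 and mt-Co2 -0.44. List medians did so at MCM helicase and replication -0.54, glycolysis -0.33, proteasome -0.23, translation factors -0.36, tRNA synthetases -0.45, cytoskeleton and adhesion -0.42, mitochondrial ribosome (nuclear) -0.19 and histone variants and linker -0.31. With library totals the slopes were Arglu1 -0.10, Dnmt3a -0.15, Gata4 -0.0949, Igf2bp1 -0.14, Igf2bp2 -0.14, Mettl17 -0.0690, Nr0b1 -0.0801 and Phlda3 -0.0133, and the median of MCM helicase and replication was -0.0650. With the 3 h libraries they were Ankhd1 0.0692, Arglu1 -0.0613, Cox17 -0.15, Dnmt1 0.14, Dnmt3b 0.20, Exosc3 -0.00706, Fas -0.00352, Gata4 -0.19, Hes6 -0.0299, Idi1 0.16, Igf2bp1 -0.0214, Igf2bp3 0.16, Itga6 0.14, Jund -0.25, Kmt2c 0.15, Lama5 0.12, Lsm1 -0.0603, Mettl17 -0.10, Phlda3 -0.18, Tet2 0.13, Tfcp2l1 0.00493, Tug1 0.40, Vps13c 0.41 and mt-Co2 -0.0194, and the median of DNA methylation and Tet was 0.13. Slopes near 0 also turned with the fit of 12 libraries (Cdkn2d 0.0142, Dnmt3b 0.0101 and mt-Co3 0.0309), with RLE size factors (mt-Co3 0.00753), DESeq2 (mt-Co3 0.00904) or the replicate block (mt-Co3 0.00131). They turned without the first EPS library at 0 h (Gata4 -0.0256), the second (mt-Co3 0.0640), the first at 1 h (mt-Co3 0.00432), the first at 2 h (Cdkn2d 0.0650) and the second (Cdkn2d 0.0591 and mt-Co3 0.0731). Leaving out 1 library at a time, the slope ranged from -0.026 to 0.17 for Gata4 and from -0.086 to 0.073 for mt-Co3. Of the other values for single genes, 3074 kept direction and call, 115 lost the call and 25 gained it. Apart from the scalings, which set the reference by construction, the cause of these changes was not tested.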
